A study of Mus musculus with 10 samples.

Results

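The AP-1 family of transcription factors was described here through 10 genes chosen by name: Fos, Fosb and Fosl2 of the FOS family, Jun, Junb and Jund of the JUN family, Batf, Batf2 and Batf3 of the BATF family, and Atf3. They are 10 of the 41813 genes in the expression tables. The cells were mouse dendritic cells, CD11c+ and MHCII high, grown from bone marrow and kept for 24 h in coculture with CD4+ OT-II T cells, whose receptor recognises an ovalbumin peptide. RNA-seq libraries were analysed in 2 groups of 3: RNA_Activated, from dendritic cells pulsed with the peptide OVA323-339, and RNA_Non_Activated, from dendritic cells left without peptide. The design text states that the cells of both groups had received LPS, a bacterial ligand of Toll-like receptor 4, whereas the sample labels give LPS stimulation as yes in the activated group and no in the non-activated group. The difference between the groups is therefore peptide presentation to T cells under the first account and peptide with LPS under the second, and the files do not settle which. No strain, animal age or number of animals was given, and nothing states that the 3 replicates came from separate cultures. The p-values below therefore measure spread among libraries, which may not be the spread among separate cultures or animals. The 4 ATAC-seq samples of the series were not analysed here.

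AP-1 is a dimer of basic leucine zipper (bZIP) proteins: a FOS protein must pair with a JUN protein to bind DNA, whereas JUN proteins can also pair among themselves, and BATF and ATF3 proteins pair with JUN partners. Several members, Fos and Atf3 among them, are early response genes whose transcripts appear briefly after a stimulus, and their proteins are further controlled by MAP kinases. In dendritic cells and lymphocytes BATF-JUN dimers bind composite sites together with IRF4 or IRF8, and Batf3 is required for the development of the conventional type 1 dendritic cell (cDC1).

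The 6 libraries held between 21338012 and 27404937 expected counts. Itgax, the gene of CD11c, was present at 198 to 442 CPM (expected counts scaled to a common library size) in every library, and the 10 dendritic cell markers summed to 17148 to 20953 CPM in the activated and 16244 to 19601 CPM in the non-activated libraries, with 4 of the 10 passing the test described below as higher and 0 as lower (4 and 2 with the replicate number as a block, the 2 being the MHC class II genes H2-Aa and H2-Eb1). The libraries labelled replicate 1 stood apart in both groups: Trac, a T cell receptor constant gene, was at 7420 CPM in activated replicate 1 and 7444 CPM in non-activated replicate 1, against 2.73 to 27.8 CPM in the other 4. Without Trac, the T cell marker list summed to 40.7 to 168 CPM in the activated and 51.7 to 137 CPM in the non-activated libraries. The upper ends were again the replicate 1 libraries. Trbc2, another T cell receptor constant gene, was at 107 (activated) and 106 CPM (non-activated) there, against 0.504 to 1.88 CPM in the other 4. None of the listed genes was at 0 in all 6 libraries, and 3 of the 9 tested were higher (Lck, Zap70 and Cd247) and 0 lower (3 and 1 with the block). Zap70 lost its call without activated replicate 1 (edgeR adjusted p = 0.113) or non-activated replicates 2 or 3 (0.102 and 0.111), and Cd247 without any single library other than non-activated replicate 1 (0.0501 to 0.135). Activated helper T cell markers summed to 7.11 to 25.2 CPM in activated and 14.9 to 21.9 CPM in non-activated libraries. Of 4 tested, 1 was higher and 2 lower. Macrophage markers summed to 1855 to 3270 and 2643 to 3386 CPM, in the same order. Of 7 tested, 0 were higher and 3 lower, and 4 were lower with the block. Mast cell markers summed to 21.8 to 40.8 and 64.3 to 71.7 CPM, again in that order. Nearly all of this sum was Kit, the 1 gene tested, which was lower. The other listed mast cell genes, Cpa3, Mcpt4, Mcpt8 and Ms4a2, stayed at or below 0.520 CPM throughout. The mast cell sum was therefore a reading of Kit alone. B cell markers summed to 2.08 to 3.14 CPM in the activated and 0.457 to 0.730 CPM in the non-activated libraries, and the 1 tested, Cd79b, was higher, at 1.96 ± 0.853 against 0.134 ± 0.131 CPM (edgeR adjusted p = 0.00304). NK cell markers summed to 0.490 to 2.27 and 0.0811 to 0.343 CPM, with Klrb1c at 0 in all 6 libraries and none tested, and neutrophil markers to 0.818 to 1.57 and 1.03 to 1.43 CPM, with 1 tested and not called. The part of T cell and other cells' RNA in the values of the AP-1 genes was not tested, and in such bulk samples fewer cells of a type and less RNA per cell cannot be told apart.

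Batf and Batf2 rose and Fos fell in the activated libraries, and the other 7 members did not pass the test. Batf was 1.96-fold higher, Batf2 was 3.83-fold higher and Fos was at 0.593 times its non-activated level. Changes were tested with edgeR's quasi-likelihood test across 13946 genes with sufficient counts, which included 10 of the 10 members, and a gene was called at a Benjamini-Hochberg adjusted p under 0.05. Of all genes tested, 27.6% were called, 15.9% as higher and 11.7% as lower, so that 2 members higher and 1 lower of 10 is close to the share of genes in general. The median log2 fold change was -0.01 over the members and 0.01 over all genes tested. For 7 members the CPM ranges of the groups did not overlap, higher for Fosl2, Jund, Batf and Batf2 and lower for Fos, Junb and Atf3, beside 44.7% of all tested genes (23.9% higher and 20.7% lower).

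**Figure D1:**
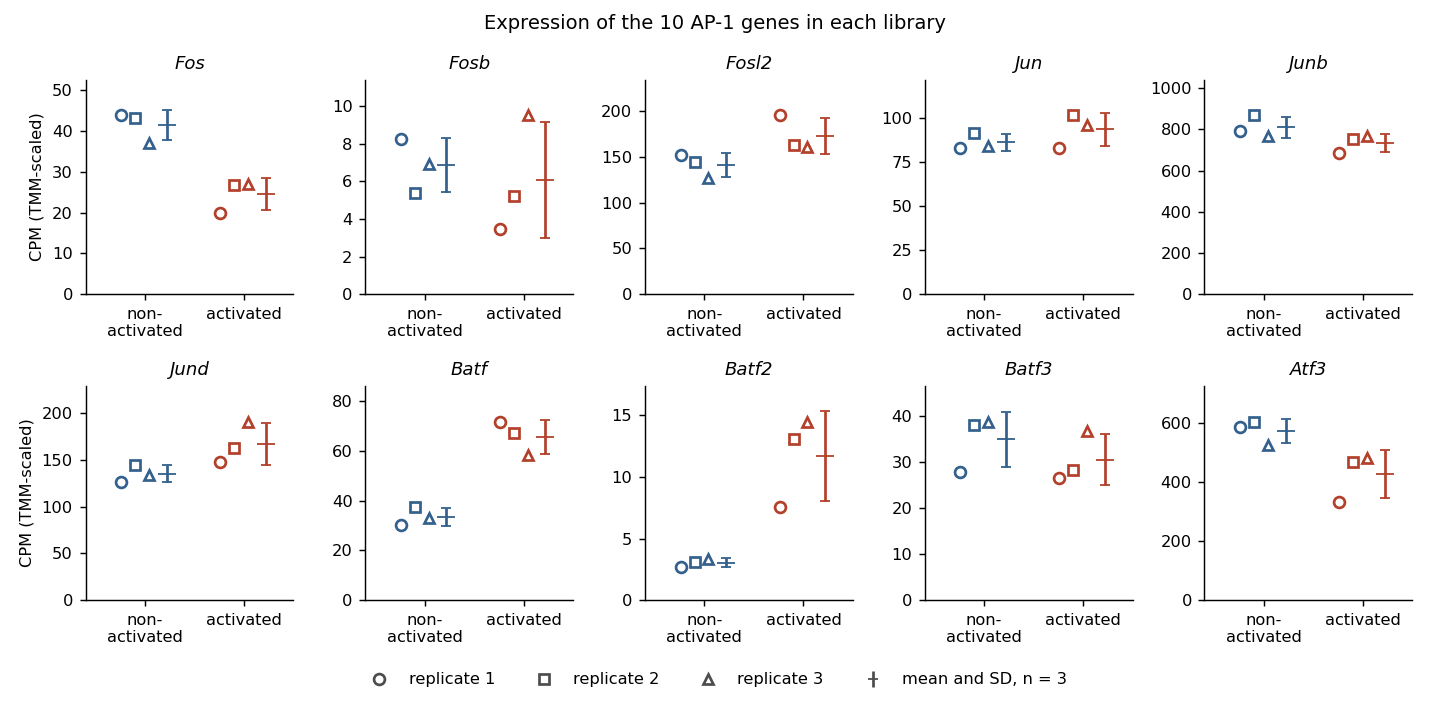
Expression of each AP-1 gene in CPM (linear axes from 0), 1 point per library with its replicate number as the symbol, and the mean and SD of the 3 libraries of each group. The activated libraries lie above all non-activated ones for Batf, Batf2, Fosl2 and Jund and below them for Fos, Junb and Atf3.

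The genes lie on 7 chromosomes, and 4 of them form 2 close pairs. In the RefSeq annotation of mouse build GRCm38.p6, Fos (chr12:85473890-85477274) and Batf (chr12:85686720-85709087) are 209445 bases apart, and Batf3 (chr1:191098414-191108943) and Atf3 (chr1:191170296-191183333) are 61352 bases apart. Fosb lies at chr7:19302696-19310118, Fosl2 at chr5:32136472-32157840, Jun at chr4:95049036-95052222, Junb at chr8:84976909-84978748, Jund at chr8:70697739-70700616 and Batf2 at chr19:6164397-6172476. No other RefSeq gene overlaps any of the 10. The strand setting and the annotation of the counting were not given, so overlap with genes of that annotation was not checked.

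Promoter sequences, the 250 bases before the annotated start, were taken from RefSeq for 9 members, Batf2 being the exception. Fos and Batf are shown whole because they lie on one stretch of chromosome 12 and moved in opposite directions, and shorter stretches of Fosb, Junb and Atf3 are shown because they hold the same short motif. Capitals mark TGACG, the beginning of a cAMP-response or ATF-type site, or CGTCA where it is read on the opposite strand. Each sequence is written 5' to 3' along the gene's strand.
Fos promoter, chr12:85473640-85473889, plus strand: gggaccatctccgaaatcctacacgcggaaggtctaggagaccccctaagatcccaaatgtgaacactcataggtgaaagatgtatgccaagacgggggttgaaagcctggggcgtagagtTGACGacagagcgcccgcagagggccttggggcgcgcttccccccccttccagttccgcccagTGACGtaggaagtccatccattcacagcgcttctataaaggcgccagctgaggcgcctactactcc
Batf promoter, chr12:85686470-85686719, plus strand: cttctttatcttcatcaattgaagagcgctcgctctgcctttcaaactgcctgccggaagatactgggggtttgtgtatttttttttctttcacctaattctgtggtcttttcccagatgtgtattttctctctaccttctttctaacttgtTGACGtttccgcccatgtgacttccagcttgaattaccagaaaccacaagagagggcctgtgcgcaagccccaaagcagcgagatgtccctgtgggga
Fosb promoter stretch, chr7:19310071-19310135, minus strand: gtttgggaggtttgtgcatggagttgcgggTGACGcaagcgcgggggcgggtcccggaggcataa
Junb promoter stretch, chr8:84978820-84978884, minus strand: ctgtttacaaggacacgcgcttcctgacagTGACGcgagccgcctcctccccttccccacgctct
Atf3 promoter stretch, chr1:191183334-191183370, minus strand: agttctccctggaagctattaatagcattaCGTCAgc
The motif TGACG occurred on either strand in 5 of the 9 windows, against 17.8% of the 32851 windows of the table, and it was chosen after the windows had been read. Fos holds it at 129 and at 66 bases before the start, Fosb at 60, Junb at 106, Batf at 98, and Atf3 holds it on the opposite strand between 7 and 3 bases before the start. The AP-1 site TGANTCA, the full cAMP-response site TGACGTCA and the CArG box bound by serum response factor occurred in 0 of the 9 windows, against 6.75%, 1.55% and 1.47% of all windows. Sequence beyond these 250 bases was not searched, so the 0 does not speak to sites farther upstream, in Fos or any other member. The form TGANNTCA, which contains TGACGTCA among its sequences, was likewise chosen after the windows had been read, and it occurred in Jun and Jund, 2 of the 9, against 11.9% of all windows. Since both motifs were picked from these windows, their shares are a description only. Promoters with the motif belong to a gene that rose (Batf), one that fell (Fos) and 3 that did not pass the test (Fosb, Junb and Atf3).

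Fos, the founding member whose protein binds DNA only with a JUN partner, fell. Its CPM was 19.9, 26.7 and 26.9 in activated replicates 1, 2 and 3 and 43.8, 43.1 and 37.1 in the non-activated replicates. Every activated library lay below every non-activated one, and activated replicate 1 was the lowest of all. The means were 24.5 ± 3.99 and 41.4 ± 3.67 CPM (SD, n = 3 each), from 536 to 660 and 916 to 1150 expected counts per library. The log2 fold change was -0.75 ± 0.13 (SE, edgeR's quasi-likelihood test, adjusted p = 0.00382). Between libraries of the same number the ratio of activated to non-activated was 0.455, 0.62 and 0.726, so that the libraries labelled replicate 1 differed most. Without both of these libraries the log2 fold change was -0.60 (edgeR adjusted p = 0.00661), and over 18 alternative settings the call held in 18, with adjusted p from 4.32e-06 to 0.0319.

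Fosl2, whose protein FRA-2 lacks the strong transactivation domain of FOS, was at 195, 163 and 160.3 CPM in the activated and 152, 144 and 127 CPM in the non-activated replicates. The ranges did not overlap, and the means were 173 ± 19.4 and 141 ± 12.8 CPM (SD, n = 3 each). Its log2 fold change of 0.29 ± 0.11 did not pass the test (edgeR adjusted p = 0.0751), but passed with the replicate number as a block (edgeR adjusted p = 0.0136; 0.0136 to 0.593 over the alternatives). The deposited gene length of Fosl2, which RSEM weights by the isoforms it estimates, was 6253 to 6346 bases in the activated and 4988 to 6000 bases in the non-activated libraries. On the TPM scale, which also divides by that length, the groups overlapped, at 41.4 ± 3.26 and 38.7 ± 4.98 TPM, and the difference was 0.10 in log2(TPM + 1).

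Fosb, a FOS gene with its own stimulus-induced expression, rested on 94 to 233 expected counts per library. It was at 3.49, 5.25 and 9.51 CPM in the activated and 8.26, 5.38 and 6.93 CPM in the non-activated replicates. The activated libraries spread on both sides of the non-activated ones, and the log2 fold change of -0.17 ± 0.34 did not pass the test (edgeR adjusted p = 0.751). Its sign turned without activated replicate 1 (0.09) and without both replicate 1 libraries (0.25). On all 6 libraries by group alone, Fos was thus called and Fosl2 and Fosb were not.

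No JUN gene passed the test on all 6 libraries by group alone. Junb, whose protein can restrain as well as replace JUN, was at 684, 752 and 767 CPM in the activated and 794, 868 and 769 CPM in the non-activated replicates. Its ranges missed overlapping by little, between activated and non-activated replicates 3, and the log2 fold change was -0.14 ± 0.10 (edgeR adjusted p = 0.32). Jun, the family's founding member and its strong activator, was at 83.2, 101 and 96.1 CPM against 83.1, 91.5 and 83.8 CPM. The groups of Jun overlapped, with a log2 fold change of 0.12 ± 0.09 (edgeR adjusted p = 0.391).

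Jund, the JUN gene usually expressed without a stimulus, was at 147, 162 and 191 CPM in the activated and 126, 145 and 134 CPM in the non-activated replicates. All activated libraries lay above all non-activated ones, with means of 167 ± 22.0 and 135 ± 9.15 CPM (SD, n = 3 each). The log2 fold change of 0.31 ± 0.11 did not pass the test (edgeR adjusted p = 0.0664). It passed with the replicate block (edgeR adjusted p = 0.0233) and without activated replicate 1 (0.0240), within a range of 0.0233 to 0.343 over the alternatives.

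Batf, whose protein lacks a transactivation domain and pairs with JUN proteins at sites shared with IRF4 and IRF8, rose. Its CPM was 71.7, 67.1 and 58.3 in the activated and 30.3, 37.4 and 32.9 in the non-activated replicates. The lowest activated library lay well above the highest non-activated one. The means were 65.7 ± 6.84 and 33.5 ± 3.55 CPM (SD, n = 3 each), from 1369 to 1929 and 797 to 889 expected counts. The log2 fold change was 0.97 ± 0.11 (edgeR's quasi-likelihood test, adjusted p = 0.00044). The ratio between same-numbered libraries was 2.36, 1.8 and 1.77. Without both replicate 1 libraries the log2 fold change was 0.82 (edgeR adjusted p = 0.0019), and the call held in 18 of 18 alternatives, with adjusted p from 2.35e-11 to 0.0113.

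Batf2, an interferon-inducible member that can take the place of Batf3 in cDC1 development, had the largest fold change of the 10. It was at 7.55, 13.0 and 14.5 CPM in the activated and 2.66, 3.11 and 3.37 CPM in the non-activated replicates. The groups did not overlap, although activated replicate 1 was well below the other activated libraries. The counts behind these values were small, 203 to 355 and 70 to 83 expected counts per library. The means were 11.7 ± 3.67 and 3.05 ± 0.354 CPM (SD, n = 3 each), and the log2 fold change was 1.94 ± 0.26 (edgeR adjusted p = 0.00101). The call held in 18 of 18 alternatives (edgeR and the other tools, adjusted p from 5.15e-11 to 0.0252), and the log2 fold change was 2.07 without both replicate 1 libraries.

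Batf3, the cDC1 factor, was at 26.4, 28.3 and 36.7 CPM in the activated and 27.9, 37.9 and 38.7 CPM in the non-activated replicates. The groups overlapped and the log2 fold change of -0.19 ± 0.16 did not pass the test (edgeR adjusted p = 0.425). The BATF family was therefore split, with 2 of its 3 genes called higher and Batf3 not called. Whether the changes of Batf and Batf3 differ from each other was not tested.

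Atf3, a stress-inducible member whose homodimer represses transcription and which limits inflammatory genes in myeloid cells, was at 335, 470.2 and 483 CPM in the activated and 587, 606 and 528 CPM in the non-activated replicates. All activated libraries were below all non-activated ones, with means of 429 ± 82.1 and 574 ± 40.9 CPM (SD, n = 3 each), and activated replicate 1 was far below the others. The log2 fold change of -0.42 ± 0.15 did not pass the test (edgeR adjusted p = 0.0647). It passed with the replicate block (edgeR adjusted p = 0.0245), with DESeq2 (0.00991, beside 26% of 15325 genes called, 14.2% as higher and 11.8% as lower) and with no filter on low counts (0.0186), within a range of 0.00991 to 0.177 over the alternatives. Ratios between same-numbered libraries were 0.57, 0.776 and 0.915, and without both replicate 1 libraries the log2 fold change was -0.27 (edgeR adjusted p = 0.0998).

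With the replicate number as a block, 4 members were called higher (Batf, Batf2, Fosl2 and Jund) and 2 lower (Fos and Atf3), beside 20% and 17.2% of all tested genes (37.2% in all). Same-numbered libraries deviated from their group means together, with correlations of 0.398, 0.313 and 0.187 across genes, but no label says what a number stands for. For Fosl2, Jund and Atf3, the members whose call changed, the log2 fold change with the block was 0.29 ± 0.07, 0.30 ± 0.08 and -0.43 ± 0.12 (SE).

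**Figure D2:**
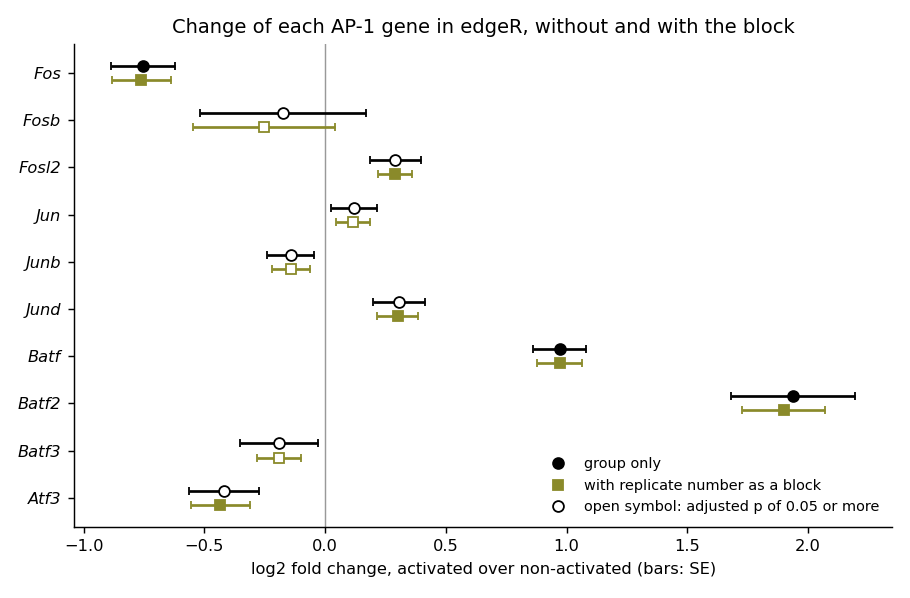
Log2 fold change of each AP-1 gene (x axis, activated over non-activated, bars are SE) from edgeR with group only (black circles) and with the replicate number as a block (olive squares), filled where the adjusted p is under 0.05. Fos, Batf and Batf2 are filled under both, and Fosl2, Jund and Atf3 only with the block.

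Activated replicate 1 was at one end of its group for each of the 10 members. It was the lowest of the 3 activated libraries for 8 (Fos, Fosb, Jun, Junb, Jund, Batf2, Batf3 and Atf3), and the highest for Fosl2 and Batf. Of all tested genes, 37.3% had this library lowest and 36.6% had it highest, so most genes in general also had it at one end. Activated replicate 3 was the highest for 7 members, beside 30.2% of tested genes. Activated replicate 1 is also one of the 2 libraries with high Trac. It held more Cd3e (1.90 against 0.25 and 0.41 CPM) and Il2 (8.62 against 0.49 and 0.53 CPM) than activated replicates 2 and 3. Of the T cell list, only Cd28 was not highest in it among the activated libraries (9.96 against 22.6 and 19.2 CPM). The other library with high Trac, non-activated replicate 1, held Cd3e at 0.152 CPM and Il2 at 0 CPM. The part of these transcripts in the order of the libraries was not tested.

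Levels of different genes were compared in TPM. Junb was the most abundant member in both groups, at 662 ± 59.4 TPM in the activated and 735 ± 47.1 TPM in the non-activated libraries, and only 1.36% and 1.21% of tested genes were more abundant. Atf3 came next at 389 ± 79.5 and 522 ± 35.02 TPM, then Jund at 165 ± 27.2 and 134 ± 12.3 TPM. In the activated libraries Batf followed at 124 ± 8.84 TPM, ahead of Batf3 at 80.2 ± 13.5 TPM, whereas in the non-activated libraries Batf3 was ahead at 97.0 ± 17.3 TPM and Batf followed at 64.2 ± 8.12 TPM. The remaining order was the same in both groups. Jun (45.7 ± 5.46 and 42.3 ± 2.90 TPM) and Fosl2 (41.4 ± 3.26 and 38.7 ± 4.98 TPM) overlapped in both groups and cannot be ranked, Fos followed at 19.7 ± 3.82 and 33.1 ± 1.58 TPM, then Batf2 at 16.0 ± 5.47 and 4.32 ± 0.766 TPM, and Fosb was lowest at 2.60 ± 1.41 and 2.94 ± 0.562 TPM. Fos and Batf2 overlapped in the activated libraries, and no other neighbours in the order did. In the non-activated libraries Fosl2 and Fos missed overlapping by little, with the lowest Fosl2 at 34.66 and the highest Fos at 34.58 TPM.

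The makeup of the BATF family in TPM separated the libraries of the groups without overlap. Batf made up 62.8%, 57.1% and 49.8% of the summed BATF family TPM in activated replicates 1, 2 and 3 and 40.7%, 39.6% and 36.5% in the non-activated replicates, and Batf3 made up 32.4%, 34.98% and 41.2% against 56.7%, 58.0% and 60.7%. Batf was therefore the most abundant BATF transcript in all 3 activated libraries and Batf3 in all 3 non-activated ones. The ratio of Batf to Batf3 was 1.94, 1.63 and 1.21 in the activated and 0.717, 0.683 and 0.601 in the non-activated replicates. Batf2 stayed the smallest, at 4.74%, 7.92% and 8.94% against 2.60%, 2.42% and 2.82%. The family's sum was 221 ± 10.1 and 165 ± 25.4 TPM (SD, n = 3 each).

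In the FOS family Fosl2 was the most abundant transcript of every library. Fos made up 24.8%, 34.2% and 33.6% of the family's TPM in the activated and 45.1%, 42.6% and 45.4% in the non-activated replicates, with no overlap. Fosl2 made up 72.9%, 62.3% and 60.1% against 50.3%, 54.5% and 50.1%, and the ratio of Fos to Fosl2 was 0.340, 0.550 and 0.559 against 0.896, 0.782 and 0.907. The family's sum was smaller in the activated libraries, at 63.7 ± 2.40 and 74.7 ± 6.01 TPM (SD, n = 3 each), without overlap. The larger share of Fosl2 thus stood beside a TPM of Fosl2 itself that overlapped between the groups. The JUN family was dominated by Junb, at 74.6% to 76.8% of its TPM in the activated and 80.01% to 81.3% in the non-activated libraries. Jund made up 18.0% to 20.3% and 14.1% to 15.3%, again without overlap.

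The JUN family summed to 872 ± 90.2 and 911 ± 61.2 TPM and all 10 members to 1546 ± 181 and 1673 ± 111 TPM (SD, n = 3 each), in activated and non-activated libraries that overlapped. Atf3 alone accounted for 25.0% ± 2.39 and 31.2% ± 1.49 of the 10-member sum. JUN transcripts exceeded FOS transcripts 13.7 ± 0.975 and 12.2 ± 0.859 times, with overlap between the groups. These shares and sums carry no test.

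**Figure D3:**
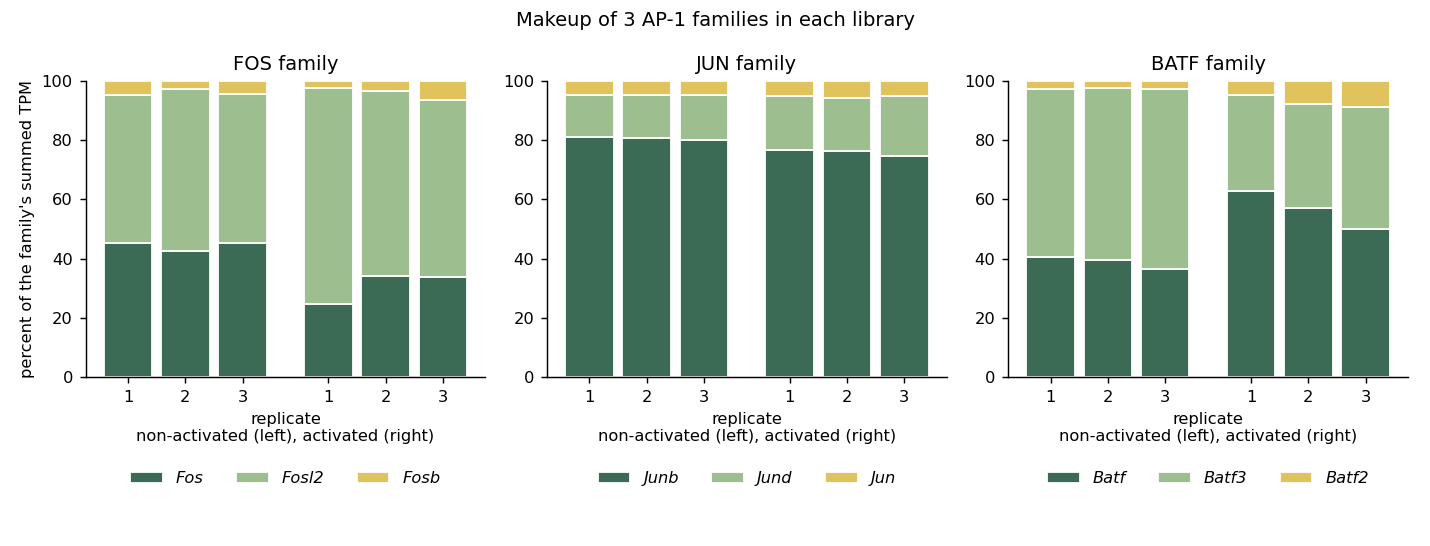
Share of each gene in the summed TPM of its family (y axis, percent, from 0 to 100), 1 bar per library with non-activated replicates on the left and activated on the right of each panel. The share of Fos is smaller and the share of Batf larger in every activated library, and Junb is the main JUN transcript throughout.

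Between Fos and Batf on chromosome 12 lies Jdp2, itself a bZIP gene whose protein pairs with JUN proteins and represses transcription. Jdp2 was at 232, 191 and 197 CPM in the activated and 87.5, 82.6 and 93.6 CPM in the non-activated replicates. It rose 2.35-fold (log2 fold change 1.23 ± 0.10, edgeR adjusted p = 7.43e-05), and its groups did not overlap. Jdp2 and Batf were thus both called higher and Fos, on the other side of Jdp2, lower. Tmed10, beyond Fos, was at 273 ± 17.7 and 299.9 ± 14.1 CPM (log2 fold change -0.13, edgeR adjusted p = 0.271), and Flvcr2, beyond Batf, had a log2 fold change of 0.62 (edgeR adjusted p = 0.243). Beside the pair of Batf3 and Atf3, Nsl1 fell from 6.06 to 3.78 CPM (edgeR adjusted p = 0.0347, lost in 10 of 18 alternatives, with a range of 0.0196 to 0.57; of the single libraries, only leaving out activated replicate 3 kept it, and the others gave 0.0716 to 0.0884), and D730003I15Rik was not called (edgeR adjusted p = 0.413).

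**Figure D4:**
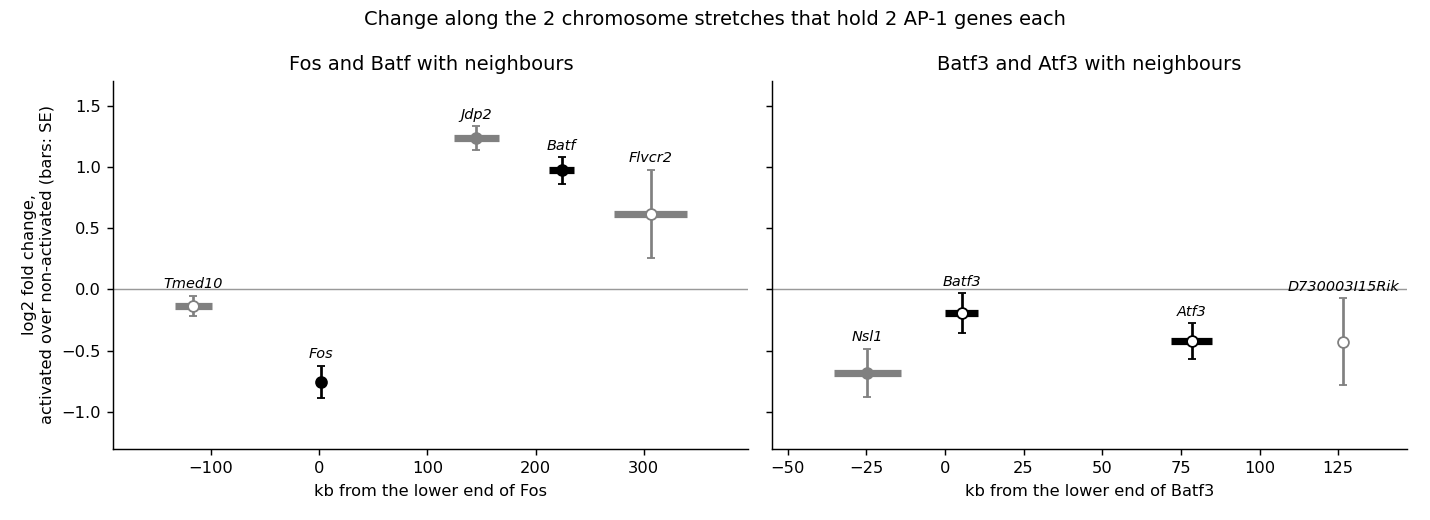
Log2 fold change (y axis, bars are SE) of the AP-1 genes (black) and their nearest tested neighbours (grey) against the distance in kb from the lower end of Fos (left) or Batf3 (right), with horizontal bars for gene length and filled points for an adjusted p under 0.05. Jdp2 and Batf lie above 0 and Fos below it on the same stretch, and neither Batf3 nor Atf3 is filled.

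Other bZIP genes, which could pair with the members or compete for their sites, were taken from a list of 31. Of the 30 tested, 4 were higher (Jdp2, Maff, Nfe2l1 and Cebpg) and 10 lower, with a median log2 fold change of -0.23 against 0.01 for all genes tested. With the block the counts were 4 and 13. These counts and those of the lists below stand beside 15.9% of all tested genes called higher and 11.7% lower (20% and 17.2% with the block). Crem, a cAMP-responsive factor, fell from 66.2 ± 2.45 to 25.7 ± 1.52 CPM, and Nfil3, a repressor bZIP protein, from 301 ± 18.0 to 123 ± 4.81 CPM (edgeR adjusted p = 1.91e-05 and 2.39e-05). Maff, a small MAF protein, rose from 33.3 ± 2.70 to 51.2 ± 0.924 CPM (edgeR adjusted p = 0.00107). Fosl1, the FOS family gene outside the 10, was at 1.23 ± 0.343 and 0.670 ± 0.0383 CPM (edgeR adjusted p = 0.0979). Cebpb was at 373 ± 34.1 and 402 ± 28.2 CPM (edgeR adjusted p = 0.469).

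**Figure D5:**
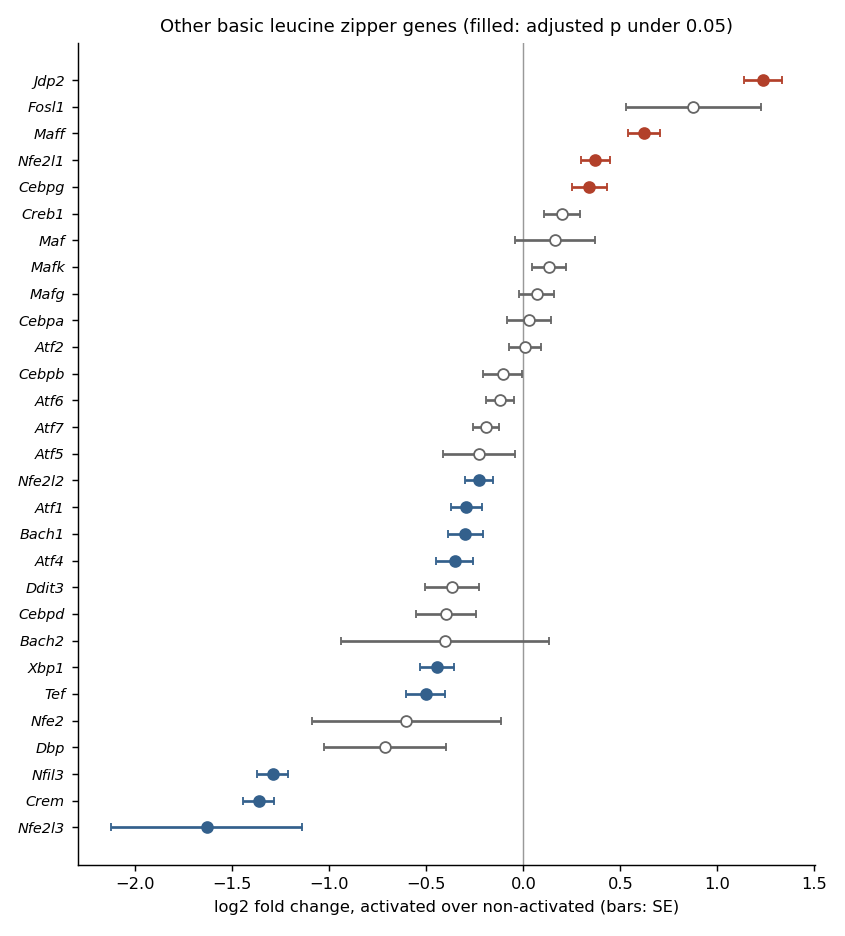
Log2 fold change (x axis, activated over non-activated, bars are SE) of the tested bZIP genes of the list, 1 of which is not shown, ordered by value and filled where edgeR's adjusted p is under 0.05. Jdp2 lies highest. Nfe2l3 lies lowest of the genes shown and is filled, at 0.645 ± 0.270 CPM in the activated and 2.04 ± 1.07 CPM in the non-activated libraries. Its call held in 9 of 18 alternatives. Crem and Nfil3 are also filled well below 0.

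Of 10 factors that bind composite sites with AP-1, 2 were higher and 1 lower (median log2 fold change 0.09). Irf4, the partner of BATF-JUN dimers, rose together with Batf, from 168 ± 3.48 to 414 ± 23.8 CPM, 2.46-fold (edgeR adjusted p = 2.07e-05). Irf8, the partner in cDC1 cells, rose from 711 ± 65.7 to 1095 ± 152 CPM, 1.54-fold (edgeR adjusted p = 0.00862), and lost its call without both replicate 3 libraries (0.0803, the highest of a range that begins at 2.29e-05). Ets2 fell from 88.7 ± 8.01 to 38.8 ± 4.86 CPM (edgeR adjusted p = 0.000182). Batf, Irf4 and Irf8 were thus all called higher, and Batf3 was not called.

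Of 11 listed genes of the cDC1, the cell type that needs Batf3, 8 were tested. Among these 8, 4 were higher and 0 lower (5 and 1 with the block), with a median log2 fold change of 0.62. Cd8a, Itgae and Cadm1 were below the filter, at no more than 0.490 CPM in any library. The interferon-inducible Ifi205 rose 2.43-fold and Cd24a rose 1.87-fold (edgeR adjusted p = 0.000639 and 0.00468). The receptor genes Tlr3 and Xcr1 were low, at 5.58 ± 1.74 and 3.40 ± 0.423 CPM in the activated and 2.43 ± 0.411 and 1.51 ± 0.458 CPM in the non-activated libraries (edgeR adjusted p = 0.0151 and 0.0189, reaching 0.131 and 0.127 over the alternatives). Tlr3 lost its call without activated replicate 3 (edgeR adjusted p = 0.0586) or non-activated replicate 2 (0.0561), and Xcr1 without activated replicate 2 (0.0592), non-activated replicate 2 (0.0508) or non-activated replicate 3 (0.0523). The other 4 tested genes were not called by group alone: Id2 had a log2 fold change of 0.34, Clec9a of -0.32, Wdfy4 of -0.14 and Naaa of -0.47. With the block Id2 was called higher and Naaa lower (edgeR adjusted p = 0.0107 and 0.00181). These genes stood beside a Batf3 level that did not pass the test in either direction.

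Of 24 tested kinases of the ERK, JNK and p38 cascades, which act on FOS and JUN genes and proteins, 5 were higher and 1 lower (7 and 4 with the block), with a median log2 fold change of 0.06. Map2k1, the kinase that activates ERK, rose from 151 ± 11.9 to 306 ± 29.1 CPM, and Map3k1, a kinase above JNK, fell from 336 ± 36.2 to 153 ± 21.6 CPM (edgeR adjusted p = 0.000208 and 0.000406). The JNK gene Mapk8 was called higher at 1.31-fold (edgeR adjusted p = 0.049), a call that held in 2 of 18 alternatives (0.014 to 0.179) and was lost without any 1 of the 6 libraries (0.064 to 0.162), while the JNK gene Mapk9 did not pass (edgeR adjusted p = 0.171). Of 6 genes of serum response factor and its partners, which act at the Fos gene, 1 was higher and 1 lower: Elk3 rose 1.84-fold (edgeR adjusted p = 0.00111) and Mrtfa fell to 0.655 times (edgeR adjusted p = 0.00672, and 0.102 without both replicate 3 libraries). Of 7 genes that act on JUN or FOS turnover, 2 were higher and 0 lower. Cop1, part of a ubiquitin ligase for JUN, rose 1.49-fold (edgeR adjusted p = 0.00751, and 0.0608 without both replicate 2 libraries). Fbxw7, a ubiquitin ligase subunit, was called at 1.3-fold (edgeR adjusted p = 0.035), and of the 6 libraries only leaving out non-activated replicate 1 kept that call (0.0676 to 0.124 without each of the others).

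Genes with known AP-1 sites moved in both directions. Of 20 tested, 9 were higher and 2 lower (9 and 8 with the block), with a median log2 fold change of 0.04. Among the 9, Il2 was at 8.62 CPM in activated replicate 1 and at most 0.531 CPM in every other library. Mmp9 was at most 1.27 CPM in any library, and Ccnd1 kept its call in 8 of 18 alternatives. Cd44 rose 2.86-fold, Il1b 2.51-fold, Il6 3.17-fold and Ptgs2 2.63-fold, and Vegfa fell from 746 ± 154 to 271 ± 60.9 CPM (edgeR adjusted p = 5.19e-05, 0.000125, 0.00063, 0.00078 and 0.00101). Such genes also respond to other factors, and binding of AP-1 was not measured in the libraries used here.

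Other early response genes were called in both directions. Of 20 tested, 6 were higher and 3 lower (8 and 4 with the block), with a median log2 fold change of 0.30. The phosphatase gene Dusp2 rose 11.3-fold and Nfkbia, the NF-kappaB inhibitor, 2.03-fold (edgeR adjusted p = 0.00015 and 0.000222). The antiproliferative gene Btg2 and the nuclear receptor gene Nr4a3 fell to 0.528 and 0.405 times (edgeR adjusted p = 0.000641 and 0.00403). Egr1, often induced beside Fos, was at 10.9 and 11.5 CPM in activated and non-activated libraries and did not pass.

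Stress genes, of interest beside Atf3, gave mixed counts. Of 10 genes of the integrated stress response, the pathway through which ATF4 induces Atf3, 3 were higher and 1 lower (3 and 3 with the block). Psat1 rose 1.77-fold (edgeR adjusted p = 0.00638), while Atf4 itself fell to 0.782 times (edgeR adjusted p = 0.0268, and 0.0585 to 0.0931 without any single library other than activated replicate 1). Of 8 tested heat shock genes, which respond to the handling of cells, 5 were higher and 1 lower, among them Hsp90aa1 and Hspd1 at 1.65-fold each (edgeR adjusted p = 0.00149 and 0.0023). Atf3, as given above, was lower in every activated library, and its call depended on the setting.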

How the data were processed

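The authors deposited one RSEM gene table per RNA library, with expected counts, TPM and FPKM per Ensembl mouse gene and an isoform-weighted gene length, per the file headers. Per the labels' protocols, libraries were made with NEBNext Ultra from 200 ng of RNA and sequenced as single 60-nt reads. The submitters' processing notes name GRCm38; the aligner, annotation and strand setting of these tables are not given in the sources used here. The deposited FPKM was not used.

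Expected counts were rounded. Genes kept by filterByExpr were scaled by TMM and the groups compared in edgeR 4.0.16 under R 4.3.3 (quasi-likelihood test, Benjamini-Hochberg over all 13946 genes, 0.05), activated against non-activated, and CPM was computed on the TMM-scaled totals. The deposited TPM values gave the comparisons of levels between genes. DESeq2 1.42.0, limma 3.58.1 (voom, and log2(TPM + 1) or log2(TPM + 0.1)), other scalings and filters, a replicate block and left-out libraries were tried. The steps were tested on simulated data.

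Replicate numbers come from the sample titles. Correlations of deviations from group means were 0.398, 0.313 and 0.187 for libraries of one number and -0.315 to 0.04 for the others. Deviations within a group cancel out for each gene, so the correlations of the other pairs are not independent of these. The blocked value is given where it changes the call of a member or the count of a list.

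The members and gene lists were chosen with earlier results of these data known. From each list at most 5 called genes with the smallest adjusted p were named, plus Fosl1, Jdp2, Irf4, Irf8, Maff, Cebpb, Mapk8, Mapk9 and the members' nearest neighbours. Nfe2l1, Nfe2l3, Cebpg, Egr1, Id2, Clec9a, Wdfy4, Naaa, Cd8a, Itgae, Cadm1, Mmp9, Ccnd1 and the cell markers were named after their values were seen. Some genes that this rule names are not reported here. Promoter sequences are from RefSeq (GRCm38.p6).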

Additional observations from a re-analysis of the deposited data

How the results depend on the processing

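The calls of Fos, Batf and Batf2 held in 18 of 18 alternatives. Members called higher numbered 4 with the replicate block, beside 20% of all tested genes. Members called lower numbered 2 with the block, with DESeq2 and with no filter on low counts. Beside these stood 17.2% of all tested genes called lower with the block and 11.8% with DESeq2. With no filter, 1855 of 23554 genes were called lower and 2144 higher. With libraries left out, 2 to 3 members were higher and 1 lower. The calls over all genes then ran from 1185 to 1956 higher and from 600 to 1673 lower, of 14027 to 14400 genes tested. With all 6 libraries they were 2216 and 1632 of 13946. With both libraries of one number left out, 1810 were higher and 1464 lower without replicate 1, 1277 and 775 without replicate 2, and 1185 and 600 without replicate 3, while 1061 were lower without non-activated replicate 2. With the replicate block, 2787 were higher and 2397 lower. The log2 fold change of Fosb was -0.17 with all libraries and ran from -0.67 to 0.25 with libraries left out, turning to 0.09 without activated replicate 1 and to 0.25 without replicate 1 of both groups, and the log2 fold change of Cebpb ran from -0.18 to 0.0065, turning only in the latter; the cause was not tested. Of the values of single genes under the alternatives, 1153 kept their side of the threshold, 148 lost a call and 6 gained one. In the same test, changes of Fosl2, Jund and Atf3 well above their SE did not pass (0.29 ± 0.11, 0.31 ± 0.11 and -0.42 ± 0.15). With 3 libraries a group and 94 to 233 counts per library, a change of Fosb above its SE of 0.34 could therefore also be missed.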
